A study of Mus musculus with 5 samples.

Results

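Regions of H3K9me3 that lay at the ends of protein-coding genes were examined in mouse CD8+ T cells. A region was taken where its midpoint fell within 500 bp of either end of a protein-coding gene span on chromosomes 1 to 19. This held for 829 of the 46409 deposited regions, and 874 of 20661 genes had such a region. The cells came from the spleen of mice carrying the OT-I T cell receptor and a Cas9 transgene, and the cells of both groups were electroporated with Cas9 ribonucleoprotein (300 pmol sgRNA with 300 pmol Cas9 protein) and left to recover for 72 hours. The sgNTC group (genotype label Prdm12-wt) received a non-targeting guide and the sgPrdm12 group (genotype label Prdm12-ko) a guide against Prdm12, with 2 libraries each, the first of each group in batch 1 and the second in batch 2. The sources used here do not say whether libraries came from separate mice, how cells were pooled or what share of cells was edited, so a p-value here reflects the spread of these 4 libraries, which may be technical. A histone mark does not measure expression. Of 5 defining CD8+ T cell genes, 3 B cell genes and 3 myeloid genes, 0 had a region at an end. Over all protein-coding genes the share was only 4.23%, so this says little about cell type.

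H3K9me3 is trimethylation of lysine 9 of histone H3, a mark of silent chromatin that is read by heterochromatin protein 1. It is known to cover pericentromeric repeats, transposable elements and clusters of zinc finger and receptor genes, and it is usually low at the starts of active genes, many of which lie in unmethylated stretches rich in CpG dinucleotides. CUT&Tag measures a mark with an antibody and a tethered Tn5 transposase, which cuts the nearby DNA. Prdm12 belongs to the PRDM family of chromatin regulators and is best known from pain-sensing neurons. No gene-end region lay at Prdm12.

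The marked gene starts were of visibly different sequence, and 6 are shown because the medians below differ by promoter class. Each is the 250 bases before an annotated start, read 5′ to 3′ on the gene's strand from RefSeq promoters of GRCm38.p6, with CG dinucleotides in capitals. They were chosen after their values were seen. The first 4 belong to regions that were lower in sgPrdm12, and the last 2 to keratin-associated protein genes of the hair shaft, which were not called. The 6 do not stand for all starts. The last 2 had log2 fold changes of sgPrdm12 over sgNTC of 0.54 and 0.52. All tested starts without a CpG-rich promoter had a median of -0.19, and olfactory receptor gene regions one of -0.39.
Siva1, chr12:112644578-112644827, plus strand: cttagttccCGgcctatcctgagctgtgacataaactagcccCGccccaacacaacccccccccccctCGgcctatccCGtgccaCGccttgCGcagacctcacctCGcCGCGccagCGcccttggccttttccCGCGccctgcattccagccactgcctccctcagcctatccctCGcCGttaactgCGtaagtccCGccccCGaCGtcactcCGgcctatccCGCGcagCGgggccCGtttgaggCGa
Cdk4, chr10:127063285-127063534, plus strand: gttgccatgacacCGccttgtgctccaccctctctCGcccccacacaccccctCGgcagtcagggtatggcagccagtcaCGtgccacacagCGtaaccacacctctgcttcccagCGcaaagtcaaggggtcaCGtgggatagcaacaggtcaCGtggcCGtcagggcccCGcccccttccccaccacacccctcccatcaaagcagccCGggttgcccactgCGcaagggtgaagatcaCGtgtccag
Dnajb1, chr8:83607925-83608174, plus strand: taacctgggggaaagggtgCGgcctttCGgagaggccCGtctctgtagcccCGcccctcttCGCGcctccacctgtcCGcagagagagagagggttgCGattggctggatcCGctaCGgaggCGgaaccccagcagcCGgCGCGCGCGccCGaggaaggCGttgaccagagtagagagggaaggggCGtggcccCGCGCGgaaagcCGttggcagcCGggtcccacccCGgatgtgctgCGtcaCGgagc
Khsrp, chr17:57031508-57031757, minus strand: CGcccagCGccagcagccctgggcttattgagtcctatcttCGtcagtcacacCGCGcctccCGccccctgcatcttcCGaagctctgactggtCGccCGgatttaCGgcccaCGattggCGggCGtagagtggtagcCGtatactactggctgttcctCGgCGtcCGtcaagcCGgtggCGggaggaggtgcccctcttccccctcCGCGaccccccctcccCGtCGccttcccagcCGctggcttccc
Krtap21-1, chr16:89403775-89404024, minus strand: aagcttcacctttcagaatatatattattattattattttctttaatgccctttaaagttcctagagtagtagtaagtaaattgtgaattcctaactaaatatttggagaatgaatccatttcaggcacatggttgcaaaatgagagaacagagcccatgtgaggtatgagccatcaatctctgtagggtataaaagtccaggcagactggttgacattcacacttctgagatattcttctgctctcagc
Krtap6-2, chr16:89420112-89420361, minus strand: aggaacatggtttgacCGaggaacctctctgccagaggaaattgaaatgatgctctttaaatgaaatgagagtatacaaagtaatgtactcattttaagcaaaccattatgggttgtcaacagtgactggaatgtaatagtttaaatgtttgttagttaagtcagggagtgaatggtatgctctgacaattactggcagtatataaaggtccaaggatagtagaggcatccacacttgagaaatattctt

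The 4 first stretches held 24, 13, 27 and 24 CG dinucleotides, and the 2 keratin-associated ones 0 and 1. GC content was 67.6%, 64.4%, 69.6% and 67.6% against 36% and 36.8%. The GC box (GGGCGG, either strand) was found in each of the 4 and in neither of the 2, while the TATA box (TATAAA, either strand) was found in the 2 and in none of the 4. The Cdk4 stretch held 4 copies of the E-box CACGTG. These are letter matches and do not show that a factor binds.

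The regions clustered at gene starts, with at most a small rise inside gene 3′ ends. Strand was taken from the RefSeq promoter table, which covered 16456 of the 20661 genes. By strand, 533 regions lay at starts only. At 3′ ends only, 75 lay inside the gene and 46 beyond it. Another 25 lay at both a start and a 3′ end, of 1 short gene or of neighbours. A further 142 lay at genes without a strand in that table and 8 at a mix of known and unknown strand. Per kilobase and 1000 genes there were 26.7 regions in the 500 bp before the start and 41.7 in the 500 bp after it, against 9.95 between 5000 and 2000 bp before and 9.46 between 2000 and 5000 bp after. At 3′ ends the same densities were 11.3 in the last 500 bp of the gene and 6.68 in the 500 bp beyond, against 10.1 and 12.4 farther away. The highest density of the 3′ profile was 14.1, between 1000 and 500 bp before the 3′ end. Starts thus stood well above their surroundings, and near 3′ ends there was at most a small rise inside the gene. Of the start regions, 213 had their midpoint before the start and 320 inside the gene. There were 32 regions that lay at the starts of 2 or more genes, and 20 genes had a region at both ends. The median span of these 20 genes was 630 bp, against 17491 bp for all protein-coding genes.

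**Figure D1:**
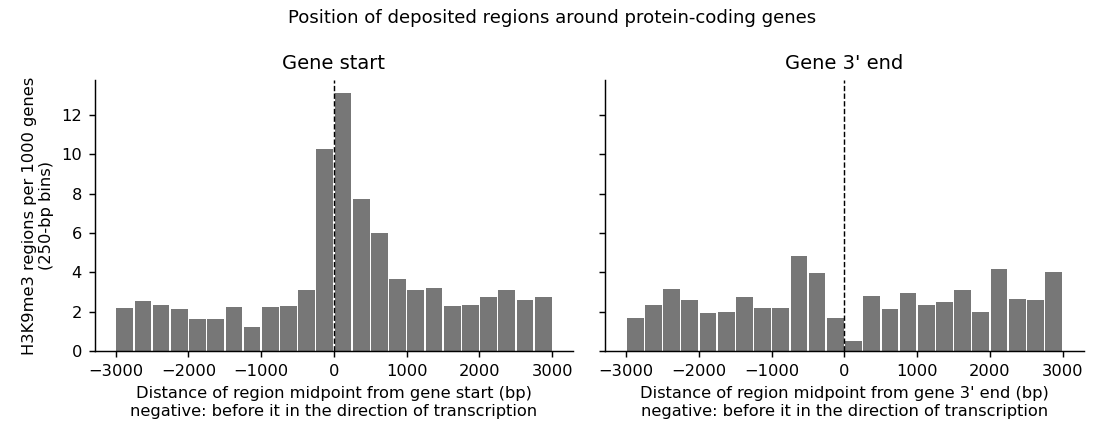
Deposited regions per 1000 protein-coding genes (y axis) in 250-bp bins of distance from the gene start (left) and the gene 3′ end (right), for the 16456 genes of known strand; a region counts once per panel, at its nearest gene. Regions pile up around the start, with up to 13.1 in a bin. At the 3′ end the highest bin, 750 to 500 bp before it, holds 4.86.

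Genes of many kinds had a region at an end, and no kind was marked as a whole. Over all protein-coding genes the share was 4.23%. Among families whose clusters are known to carry H3K9me3, it was 30 of 415 zinc finger genes, or 7.23%, and 66 of 1104 olfactory receptor genes, or 5.98%, while vomeronasal and taste receptors had 5 of 390, or 1.28%. Skin barrier and keratin genes had the highest share of the 21 lists, with 12 of 150, or 8%. Genes of general cell function were marked as well, with 8 cell cycle genes (6.56% of their list), 5 of 68 translation factors (7.35%) and 4 of 91 chaperones (4.4%). Ribosomal protein genes had 1 of 93 and splicing and RNA binding genes 2 of 166. Of 39 immediate early and growth arrest genes 0 had a region. Of 71 T cell genes 5 did, namely Il6ra, Id3, Lat, Fyn and Stat3, each at the start. The lists were made with earlier results of these data known, and differences between shares were not tested.

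**Figure D2:**
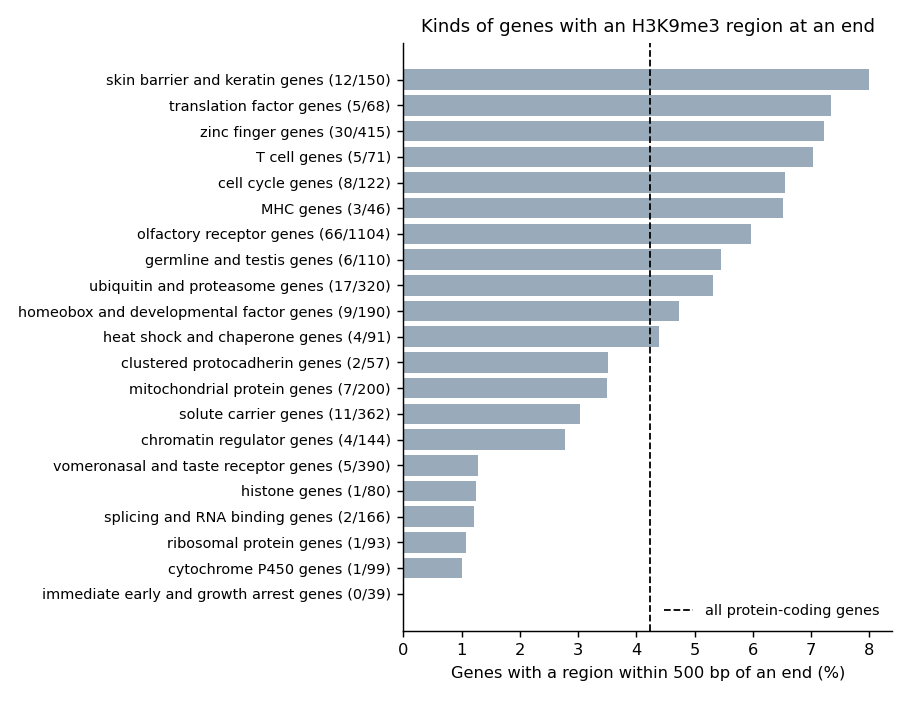
Share of genes with a region within 500 bp of an end (x axis, percent) for the 21 gene lists, with the number of marked genes over all genes of the list in parentheses. The dashed line is the share over all protein-coding genes, 4.23%, and the lists run from 0% to 8%.

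The promoters of genes marked at the start were richer in CG than those of all genes. Within the 300 bases from 250 before to 50 after the start, the median number of CG dinucleotides was 19 over 546 marked genes and 14 over all 14216 genes with such a window. A promoter was called CpG-rich where its GC content was at least 50% and its observed over expected CpG at least 0.6, and this held for 59.0% of the marked and 47.2% of all promoters. The GC box occurred in 62.8% of the marked and 47.4% of all promoters. The CCAAT box (CCAAT, either strand), the element bound by NF-Y, occurred in 46.3% and 39.6%, the TATA box in 11.2% and 14.1%, the E-box in 8.79% and 8.15%, and the ETS motif CCGGAAG in 12.1% and 12.5%.

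In the sgNTC libraries, gene starts held more reads than the typical region, and in the sgPrdm12 libraries they held about as many. Library totals over all regions ranged from 843673 to 2353807 counts. The median start region had 10 counts in sgNTC-1 and 12 in sgNTC-2, against 7 and 9 over all regions. In sgPrdm12-1 and sgPrdm12-2 it held 34 and 17 counts, against 32 and 17 over all regions. The median 3′ end region had sgNTC counts of 7 and 8 and sgPrdm12 counts of 32 and 20. On the authors' normalized signal, which is the count times 1 constant per library, the median gene-end region stood at 12.9 and 13.1 in sgNTC and 21.1 and 20.1 in sgPrdm12. Over all regions the same medians were 9.01, 9.80, 20.4 and 19.02. The single counts are small, with 341 at most in sgNTC-1 and 685 at most in sgPrdm12-1 over the 829 regions.

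Summed counts at starts relative to those at 3′ ends need no scale factor. This ratio was 6.74 in sgNTC-1 and 6.24 in sgNTC-2, with a mean of 6.49 ± 0.352 (SD, n = 2). It was 4.60 in sgPrdm12-1 and 4.10 in sgPrdm12-2, with a mean of 4.35 ± 0.353 (SD, n = 2). Both sgPrdm12 libraries lay below both sgNTC libraries, in each batch, and the sgPrdm12 mean was 0.670 of the sgNTC mean. The exact two-sided permutation test gave p = 0.333, the smallest that 2 against 2 libraries allow. For starts with a CpG-rich promoter the ratio was 4.12 and 3.85 in sgNTC and 2.46 and 2.17 in sgPrdm12, so the sgPrdm12 mean was 0.582 of the sgNTC mean. For starts with another promoter it was 2.15 and 1.99 against 1.75 and 1.58, or 0.807 of the sgNTC mean. The exact permutation p was 0.333 for both promoter classes as well.

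**Figure D3:**
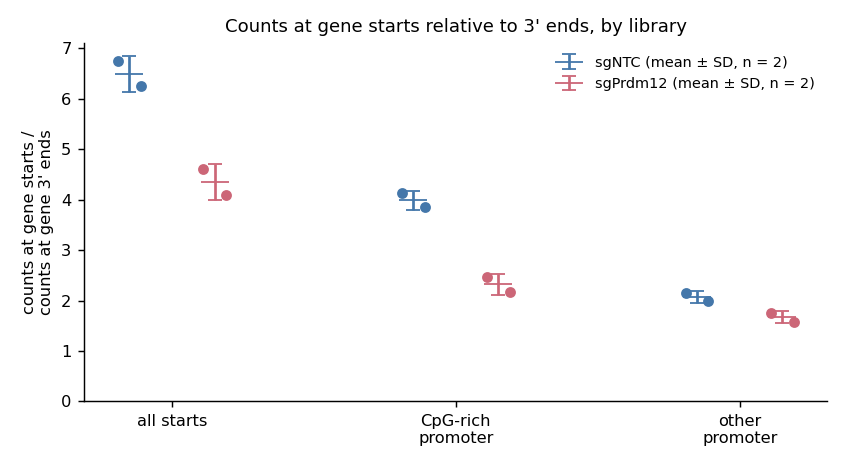
Ratio of summed counts at gene starts to summed counts at gene 3′ ends (y axis, from 0) for all starts and for starts with a CpG-rich or another promoter; points are libraries, bars are means ± SD (n = 2 per group). Both sgPrdm12 libraries lie below both sgNTC libraries in all 3 classes, from 6.49 to 4.35 for all starts.

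The share of all counts that fell in gene-end regions depended on a few heavily covered regions elsewhere. With all regions counted it was 1.25% in sgNTC-1 (95% Wilson interval 1.22 to 1.27), 1.12% in sgNTC-2 (1.10 to 1.14), 1.39% in sgPrdm12-1 (1.37 to 1.40) and 1.25% in sgPrdm12-2 (1.23 to 1.27). The 10 most covered regions, of which 0 were at a gene end, took a larger part of the sgNTC counts. Without them the share was 2.07% (2.03 to 2.11) and 2.00% (1.97 to 2.04) in sgNTC, and 1.70% (1.68 to 1.72) and 1.61% (1.59 to 1.64) in sgPrdm12. The direction thus turned, and the exact permutation p was 0.333 both ways. The intervals cover counting error only.

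Single regions were compared with edgeR's quasi-likelihood test on the counts of the whole table, scaled by TMM, so that a change is relative to the median region. Of the 829 gene-end regions 719 passed the filter on low counts. Of these, 2 were higher and 20 lower in sgPrdm12 at a Benjamini-Hochberg adjusted p under 0.05. Over all 37390 regions tested, 0.11% were higher and 0.377% lower, and over the gene-end regions 0.278% and 2.78%. The median log2 fold change of the gene-end regions was -0.33, against -0.01 over all regions tested, and 67.5% of them were below 0, against 50.8% of all. The distance between both medians was -0.32 in batch 1 and -0.38 in batch 2. Both sgPrdm12 libraries lay below both sgNTC libraries in 36.2% of the gene-end regions, against 16.4% of all regions tested, and above them in 13.1%, against 20.1%.

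The scale decides the direction of the typical region. With the authors' constants the median was 1.00 over all regions and 0.68 over gene-end regions, and 103 gene-end regions were higher and 6 lower. That is 14.3% and 0.834% of the members, against 20.8% and 0.139% of all regions with those constants. With total counts as the scale the medians were 0.61 and 0.29. The gene-end median minus that of all regions was between -0.33 and -0.32 under the 4 scales, which is so by construction, since a scale shifts all regions alike.

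Start regions had a lower median than 3′ end regions, and lower calls were found at both. Of 469 tested start regions edgeR called 0 higher and 16 lower, or 3.41%, and 112 had an unadjusted p under 0.05 in either direction, against 2399 of the 37390 regions tested. DESeq2's Wald test called 14 of them lower. Their median was -0.47. Of 97 tested 3′ end regions 2 were higher and 2 lower, or 2.06% each, and the median was 0.01. Over all regions tested 0.11% were higher and 0.377% lower. Of 127 regions at genes of unknown strand 2 were lower, with a median of -0.27. Start regions whose midpoint lay before the gene had a median of -0.62 and 11 lower of 196, and those inside the gene a median of -0.33 and 5 lower of 273. The 34 tested 3′ regions beyond the gene had a median of 0.48 and held both higher regions, and the 63 inside the gene had a median of -0.20 and held both lower ones. By promoter class, the 260 tested starts with a CpG-rich promoter had a median of -0.68, with -0.56 in batch 1 and -0.68 in batch 2, and 12 of them were lower. The 174 with another promoter had a median of -0.19, with -0.12 and -0.33 in the batches, and 3 were lower. Both sgPrdm12 libraries lay below both sgNTC libraries in 51.2% of the CpG-rich and 31.0% of the other starts, against 16.4% of all regions tested. They lay above in 5.77% and 16.1%, against 20.1%. These are descriptions of the classes, and the difference between them was not tested.

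**Figure D4:**
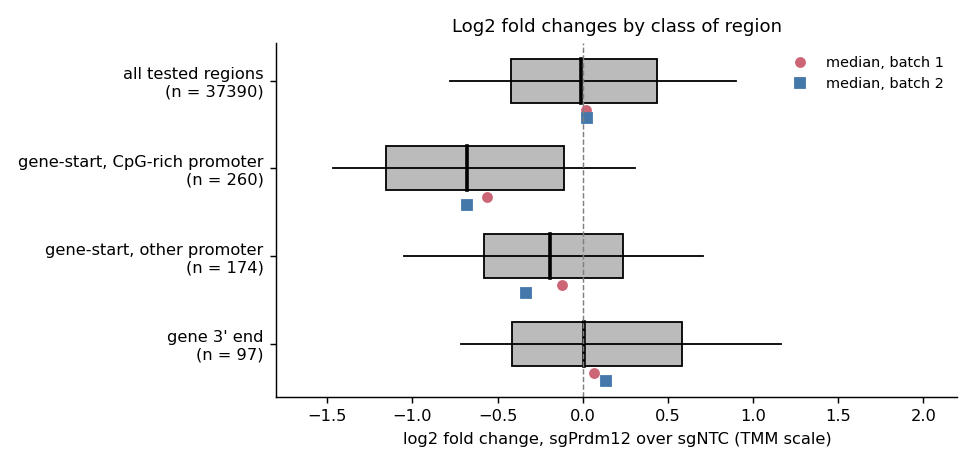
Log2 fold change of sgPrdm12 over sgNTC (x axis, TMM scale) for all tested regions, starts with a CpG-rich promoter, starts with another promoter and 3′ ends; boxes span the 25th to 75th percentiles with the median as a line, whiskers the 10th to 90th percentiles, and the circle and square the medians in batch 1 and batch 2. The CpG-rich starts lie lowest, at a median of -0.68, and the 3′ ends near the median of all regions.

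The distance from all regions was larger at higher counts. Tested regions were divided into 4 equal bins by mean level. In the highest bin, at 16.4 CPM (counts per 1e6 on the TMM scale) or more, 269 gene-end regions had a median of -0.68, against -0.04 over all regions of that bin. Of the 20 lower regions 19 lay there. The lower regions of the whole table were not counted by bin, so this is not shown to be particular to gene ends. In the lowest bin, below 9.71 CPM, 109 gene-end regions had a median of 0.12, the same as all regions of the bin. That bin lies next to the filter on low counts, whose part in its medians was not tested. At the edge of the rule, regions with midpoints 450 to 500 bp from an end had a median of -0.22 over 57 tested, with 2 lower, and those 500 to 550 bp away a median of 0.17 over 40 tested, with 0 lower.

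All 20 lower regions had both sgPrdm12 libraries below both sgNTC libraries on the TMM scale and were lower in both batches. Both higher regions had them above. The test chose these regions on the same 4 libraries, so this order largely follows from the choice. The calls depended on single libraries, most of all those of sgNTC. Of the 22, 3 passed without sgNTC-1, 7 without sgNTC-2, 17 without sgPrdm12-1 and 10 without sgPrdm12-2, and 1, at Siva1, passed in all 4 of these fits. With DESeq2 size factors 12 passed, and with limma-voom 10. Under all 4 scales 6 were lower, at Siva1, Oard1 and Nfya, Icmt, Cdk4, Parp2 and Ccdc107.

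**Figure D5:**
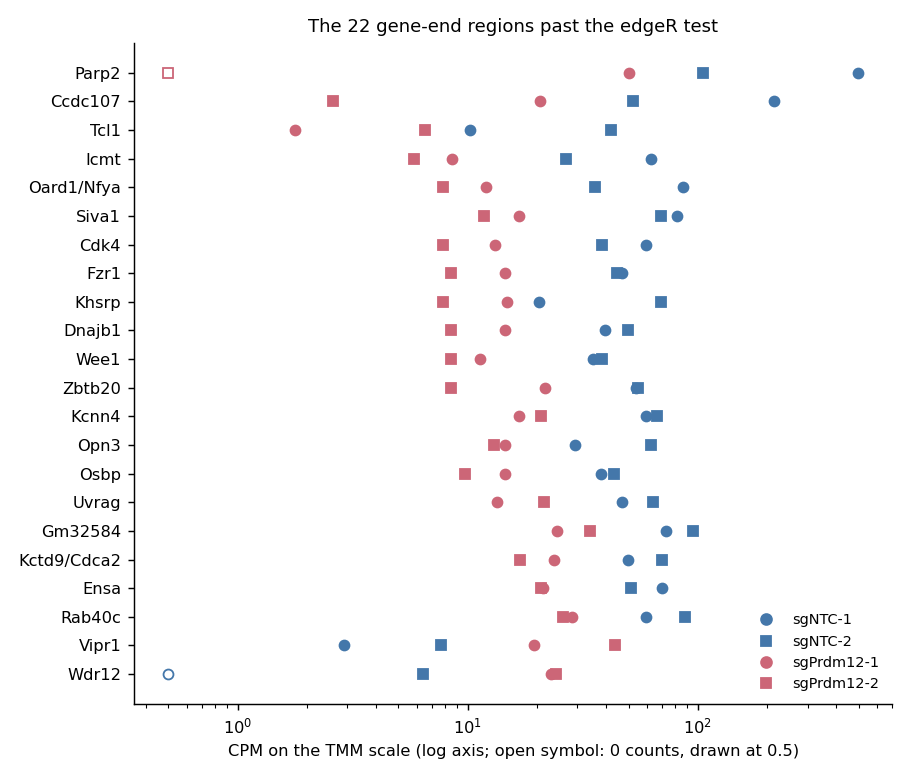
CPM on the TMM scale (x axis, log) of the 22 called gene-end regions in each library, with sgNTC in blue, sgPrdm12 in red, circles for replicate 1, squares for replicate 2 and open symbols for 0 counts drawn at 0.5. In the upper 20 regions both red symbols lie left of both blue ones, and at Vipr1 and Wdr12 they lie right of them. The test chose these regions on the same libraries.

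Cell cycle genes gave 3 of the lower regions. Of the list's 8 marked genes 7 were tested, with a median of -1.16, and 0 were higher. Over all regions tested 0.377% were lower, and over tested start regions 3.41%. The list was made with earlier results of these data known, so these calls are no test of cell cycle genes. The region before Cdk4, the G1 kinase whose start is shown above, lies at chr10:127063288-127063582. Its counts were 41 and 30 in sgNTC, and 37 and 12 in the deeper sgPrdm12 libraries. That is 49.0 ± 15.2 against 10.5 ± 3.74 CPM (SD, n = 2). It fell by 2.16 on the log2 scale (SE 0.42, edgeR adjusted p = 0.00108). The region 291.5 bp before Fzr1, which activates the anaphase-promoting complex, held 32 and 35 counts against 41 and 13. It stood at -1.93 on the log2 scale (SE 0.42, edgeR adjusted p = 0.00613). At Wee1, the kinase that restrains mitotic entry, counts were 24 and 30 against 32 and 13, and the region fell by 1.85 (edgeR adjusted p = 0.0267). E2f3 and Ccnf, a transcription factor and a cyclin of the same list, stood at -1.16 and -1.14, Cdkn2d, an inhibitor of Cdk4, at -0.06 and the kinase Aurkc at 0.35, and none of these 4 passed. The region at Aurkc was kept by the filter on low counts only through the sgPrdm12 libraries. Cdk4 did not pass without sgNTC-1, Fzr1 without either sgNTC library or sgPrdm12-2, and Wee1 passed only without sgPrdm12-1 of these 4 fits. Fzr1 and Wee1 did not pass with the authors' constants or total counts. The next regions are outside the list and were placed here by function after their values were seen. The region at Ensa, an inhibitor of the phosphatase that opposes mitotic kinases, held 48 and 40 counts against 60 and 32. It had a log2 fold change of -1.51 (edgeR adjusted p = 0.0238). It did not pass when any 1 of the 4 libraries was left out. The region shared by the ends of Kctd9 and Cdca2, the latter a chromosome-bound phosphatase subunit, fell by 1.53, with 34 and 55 counts against 67 and 26, and passed only without sgPrdm12-1 of the same 4 fits.

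Chaperone genes gave 1 of the lower regions. The list had 4 marked genes, of which 3 were tested. Over all regions tested 0.377% were lower, and over gene-end regions 2.78%. The region at Dnajb1, a heat shock protein 40 that works with heat shock protein 70, had sgNTC counts of 27 and 39 and sgPrdm12 counts of 41 and 13. It stood at -1.90 on the log2 scale (SE 0.42, edgeR adjusted p = 0.00841), and the call was lost without sgNTC-1, sgNTC-2 or sgPrdm12-2, or with total counts or the authors' constants. Dnajb9, a chaperone of the endoplasmic reticulum, had 21 and 27 counts against 32 and 11 and stood at -1.77 (edgeR adjusted p = 0.0785). Hspa8, the constitutive heat shock cognate, had 24 and 44 against 57 and 21 and stood at -1.40 (edgeR adjusted p = 0.107). In all 3 regions both libraries of sgPrdm12 were lower once scaled, as in 36.2% of gene-end regions and 16.4% of all regions tested.

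Of the other lower regions, 5 lay at starts of Siva1, Oard1 and Nfya, Khsrp, Zbtb20 and Icmt. The region before Siva1, which encodes an apoptosis-inducing protein, lies at chr12:112644519-112644824 and overlaps the lncRNA Gm30101. It held 56 and 54 counts against 47 and 18, or 75.3 ± 8.99 and 14.2 ± 3.49 CPM (SD, n = 2). It stood at -2.37 on the log2 scale (SE 0.37, edgeR adjusted p = 1.00e-05). It passed under each of the 12 alternatives run on it. At the divergent starts of Oard1, an ADP-ribose hydrolase, and Nfya, a subunit of the CCAAT-binding factor NF-Y, counts were 59 and 28 against 34 and 12, a log2 fold change of -2.55 (SE 0.42, edgeR adjusted p = 2.17e-05). Khsrp, whose product promotes decay of AU-rich mRNAs, had 14 and 54 counts against 42 and 12. Its log2 fold change of -1.93 was made up of -0.42 in batch 1 and -2.93 in batch 2, so the replicates differed widely. Zbtb20, a zinc finger repressor, went from 37 and 43 counts to 61 and 13, a log2 fold change of -1.78. Icmt, which methylates prenylated proteins such as Ras, went from 43 and 21 counts to 24 and 9, a log2 fold change of -2.57 (SE 0.47, edgeR adjusted p = 0.000233). Oard1 and Icmt did not pass without sgNTC-1. Khsrp did not pass without sgNTC-2 or sgPrdm12-2, and Zbtb20 without either of these or sgNTC-1.

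Among channels, trafficking and receptor genes, the region in Kcnn4, the calcium-activated potassium channel of T cells, held 41 and 52 counts against 47 and 32. It stood at -1.76 on the log2 scale (SE 0.37, edgeR adjusted p = 0.00367). Uvrag, an autophagy gene, Rab40c, a small GTPase, Osbp, an oxysterol-binding lipid carrier, and Opn3, an opsin, fell by 1.70, 1.44, 1.70 and 1.73. None of these 5 passed without sgNTC-1, without sgNTC-2, with total counts or with the authors' constants. Uvrag also did not pass without sgPrdm12-1, nor Rab40c, Osbp and Opn3 without sgPrdm12-2.

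The 2 regions with the strongest falls lay over RNA genes near a protein-coding start. The region 316 bp before Parp2, a DNA repair enzyme, overlaps Rpph1, the RNA of RNase P, and held 341 and 83 counts against 142 and 0. The region 424.5 bp before Ccdc107 overlaps Rmrp, the RNA of RNase MRP, and held 147 and 41 against 58 and 4. Their log2 fold changes were -3.45 and -3.36, and in each group the first library stood far above the second. When sgNTC-1 was left out neither passed, and the same held for limma-voom and for the Wald test of DESeq2. Without both regions the ratio of start to 3′ end counts was 6.22 in sgNTC and 4.32 in sgPrdm12.

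At 3′ ends, 2 regions were higher and 2 lower. The region 438.5 bp beyond Vipr1, a receptor for vasoactive intestinal peptide, had sgNTC counts of 2 and 6 and sgPrdm12 counts of 55 and 67, a rise of 2.49 (SE 0.59, edgeR adjusted p = 0.018). The region 423 bp beyond Wdr12, a ribosome biogenesis gene, held 0 and 5 counts against 65 and 37, a rise of 2.78 (SE 0.71, edgeR adjusted p = 0.0396). With so few sgNTC counts, both regions passed the filter on low counts only through the sgPrdm12 libraries, where they were high. Neither was called with DESeq2 size factors, without the 10 most covered regions or with limma-voom. Neither passed without sgNTC-1 or sgPrdm12-2, nor did Vipr1 without sgNTC-2 or Wdr12 without sgPrdm12-1. The lower regions were inside the last part of Gm32584, with 50 and 75 counts against 69 and 52, and of Tcl1, a coactivator of the kinase Akt, with 7 and 33 against 5 and 10. They fell by 1.55 and by 2.79. Neither passed without sgNTC-2 or sgPrdm12-1, nor did Gm32584 without sgNTC-1. The region in Tcl1 passed the filter on low counts only through the sgNTC libraries, where it was high. Gm32584 overlaps the protein-coding gene D5Ertd579e, so its region cannot be assigned to one of them.

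Tested genes of mitochondrial proteins all stood below 0, though edgeR called 0 of them and 2 had an unadjusted p under 0.05. Of all tested start regions 72.7% were below 0, and 112 of 469 had an unadjusted p under 0.05 in either direction. Starts with a CpG-rich promoter had a median of -0.68. The values are thus not shown to be particular to mitochondrial genes. All 7 marked genes of the list, Atp5g2, Ndufb8, Mrps14, Tomm40, Mrpl17, Timm13 and Atp5b, were marked at the start, and their log2 fold changes ran from -1.22 to -0.93. Their SEs, from 0.49 to 0.66, were larger than the spread of these values. Tomm40, for example, had -1.53 in batch 1 and -0.42 in batch 2. The lowest value was at Mrpl17, a mitochondrial ribosomal protein, with 14 and 26 counts against 29 and 20 (edgeR adjusted p = 0.532). Tomm40, the channel of the outer membrane, had 20 and 12 against 26 and 17 and stood at -1.13. Of the 4 tested translation factors, Eif5 and Eif2ak4 stood at -1.58 and -1.16, Eif4a1 at -0.81 and Eif4g2 at 0.19. The 1 marked ribosomal protein gene, Rpl13a, had 19 and 18 counts against 37 and 13 and stood at -1.19 (edgeR adjusted p = 0.621).

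The families of clustered and tissue-specific genes had 0 calls, with list medians on either side of 0. Over all regions tested only 0.11% were higher and 0.377% lower, so 0 calls in lists of this size says little. An unadjusted p under 0.05 was found in 2399 of the 37390 regions tested. The 27 tested zinc finger gene regions had a median of 0.09 and 0 calls by edgeR, with 2 at an unadjusted p under 0.05, with Zfp180 at -1.26 and Zfp68 at -1.20. The 12 tested skin barrier and keratin gene regions had a median of 0.12 and ran from -0.72 to 0.60, with 0 at an unadjusted p under 0.05. Krtap21-1, shown above, held 14 and 15 counts against 69 and 52 and stood at 0.54 (SE 0.44), and Krtap6-2 held 12 and 14 against 70 and 40 and stood at 0.52. The 57 tested olfactory receptor gene regions had a median of -0.39 and 0 calls, with 1 at an unadjusted p under 0.05. Among them Olfr357 stood at -1.64 with -0.45 in batch 1 and -3.48 in batch 2 and passed without sgPrdm12-1, and Olfr149 at 1.26 with 5 and 5 counts against 42 and 28. Vomeronasal and taste receptors had 3 tested regions, at Tas2r118 (1.16), Vmn1r81 (0.97) and Vmn1r75 (-0.62). The regions at Olfr149, Tas2r118 and Vmn1r81 passed the filter on low counts only through the sgPrdm12 libraries. Their positive values are thus for regions kept because they were high there.

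T cell, antigen presentation, chromatin and developmental genes had 0 calls by edgeR, which says little for lists so small. Of 4 tested T cell genes, Stat3, a transcription factor of cytokine signalling, had 18 and 44 counts against 67 and 43 and stood at -0.69. Id3, an inhibitor of E proteins, had 20 and 11 against 47 and 13 and stood at -0.72, and Fyn, a Src-family kinase, stood at -0.59 with 10 and 10 against 33 and 9. The fourth, Il6ra, a cytokine receptor chain, stood at 0.02. The region near the ends of Tapbp, which loads peptides on MHC class I, and Zbtb22, at chr17:33919667-33919907, had 0 counts in both sgNTC libraries, and 21 and 25 counts in the sgPrdm12 libraries. Against a floor of 3 counts over the sgNTC group it was at least 5.17-fold higher, and it did not pass (edgeR adjusted p = 0.152). The region passed the filter on low counts only through the sgPrdm12 libraries, so this fold is for a region kept because it was high there. The region shared by Psmb9 and Tap1, of the same pathway, stood at 0.35. The 9 homeobox and developmental factor genes had a median of -0.47 and ran from Foxd3 at -0.99 over Lhx9 at -0.68 to Nkx1-1 at 1.05. The 4 chromatin regulators had a median of -0.56, with Tet1 at -0.80, Cbx8 at -0.58, Arid4b at -0.55 and Smarcd2 at 0.46. Of 6 germline genes Piwil1, which binds piRNAs, stood at 1.06 with 12 and 8 counts against 71 and 50, and Spata5 at -1.11, with a list median of -0.16. The 12 tested ubiquitin and proteasome gene regions had a median of -0.06, with Rnf44 at -1.12, Usp22 at -0.81 and Trim56 at 1.33. The 10 tested solute carrier regions had a median of -0.29 and ran from Slc20a1 at -1.38 to Slc22a21 at 0.77. The regions at Trim56 and Slc22a21 also passed the filter on low counts only through the sgPrdm12 libraries, where they were high.

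Of the 8 most covered gene-end regions, 3 were lower, namely those described above at Parp2, Ccdc107 and Gm32584, and the other 5 did not pass on the TMM scale. The most covered region, at Sfi1, a centrin-binding gene, had sgNTC counts of 248 and 244 and sgPrdm12 counts of 685 and 437 and stood at -0.35. The regions at the gene models Gm51572 and Gm51571 on chromosome 8 had counts of 106 and 137 against 451 and 321 and 27 and 50 against 208 and 139, and stood at 0.16 and 0.66. The regions at 4931408C20Rik and LOC108167694 stood at -0.54 and 0.47. With the authors' constants Sfi1, Gm51572, Gm51571 and LOC108167694 passed as higher, with edgeR adjusted p between 2.74e-05 and 0.0386. Gm51571 and LOC108167694 also passed with total counts. With the authors' constants 14.3% of gene-end regions and 20.8% of all regions were higher, and with total counts 2.23% and 3.27%.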

How the data were processed

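H3K9me3 CUT&Tag was analysed in 4 libraries, 2 of sgNTC and 2 of sgPrdm12. The IgG library was not used here. The authors deposited a table of regions with a read count, not normalized, and a normalized signal, which equals the count times 1 constant per library (1.29, 1.09, 0.638 and 1.12 in the order sgNTC-1, sgNTC-2, sgPrdm12-1, sgPrdm12-2). Trimmomatic, Bowtie2, MACS2 and DiffBind are named in the submitters' processing notes, as is the build GRCm39. Whether regions were called per library or on pooled reads is not stated there. Coordinates were read as GRCm38, in whose RefSeq gene table the region midpoints pile up at gene starts. They are printed as listed, and whether starts count from 0 or 1 is unknown.

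Regions were tested with edgeR 4.0.16 (R 4.3.3; limma 3.58.1, DESeq2 1.42.0), with filterByExpr, TMM factors, no block and a two-sided quasi-likelihood test on all regions. The SE was derived from the fold change and its F statistic. Batch values are differences of log2 CPM with a prior count of 2. The test was checked on simulated counts. Strand came from the RefSeq promoter table, which has no entry for chromosome 18 (16 regions). A region is named after the gene with the nearest end. Named regions are all calls, the 8 most covered, and the 2 with the smallest p in each list with at least 3 tested regions, while others were chosen after their values were seen. One region named by this rule is not reported here. The members and lists were chosen with earlier results of these data known.

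The labels put same-numbered libraries in 1 batch, so the numbers pair them. Their replicate differences had a correlation of 0.025 over gene-end regions (log2 of CPM plus 1). The median gene-end region held 10 and 12 counts in the sgNTC libraries, so single-region values are imprecise. Alternatives were other scales, no filter, the block, each library left out, DESeq2, limma-voom, a threshold of 0.1, ends of 250 and 1000 bp and no heavily covered regions. Alternatives for gene starts, and leaving out the regions over Rpph1 and Rmrp, were chosen after seeing the data.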

Additional observations from a re-analysis of the deposited data

How the results depend on the processing

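The distance between the gene-end median and that of all regions kept its direction under every alternative run on it, which for the other scales is so by construction. It was -0.32 as reported, -0.37 to -0.30 with 1 library left out, -0.48 with ends of 250 bp and -0.20 with ends of 1000 bp. For starts it was -0.45, and -0.55 to -0.43 with 1 library left out. The gene-end median itself, -0.33, was -0.37 with DESeq2 size factors, -0.30 with no filter, -0.29 without the 10 most covered regions, -0.50 with 250 bp, -0.22 with 1000 bp and -0.39 to -0.28 with 1 library left out, but it reversed, to 0.29, with total counts, and to 0.68 on the authors' own constants. The region at Sfi1 reversed to 0.66 with the authors' constants and passed there, where 20.8% of all regions were called higher.

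The number of lower gene-end regions, 20, was 12 with DESeq2 size factors, 6 with total counts or the authors' constants, 9 without the 10 most covered regions, 10 with limma-voom, 16 with DESeq2's Wald test, 12 with 250 bp, 18 without the regions over Rpph1 and Rmrp and 4 to 29 with 1 library left out (4 without sgNTC-1, 7 without sgNTC-2, 29 without sgPrdm12-1 and 13 without sgPrdm12-2). Lower starts, 16, were 6 with total counts or the authors' constants, 9 without the 10 most covered regions or with limma-voom and 3 to 21 with 1 library left out. Higher gene-end regions, 2, were 16 with total counts (2.23%, against 3.27% of all regions), 103 with the authors' constants (14.3%, against 20.8%), 0 with DESeq2 size factors, DESeq2's Wald test, limma-voom, 250 bp or without the 10 most covered regions, and 0 to 1 with 1 library left out. The share of lower regions was 2.78% of members against 0.377% of all regions as reported. It was 1.67% against 0.257% with DESeq2 size factors, 0.834% against 0.198% with total counts and 0.834% against 0.139% with the authors' constants. It was 1.28% against 0.219% without the 10 most covered regions, 1.39% against 0.297% with limma-voom and 2.23% against 0.35% with DESeq2's Wald test. With 1 library left out the share over all regions moved as well. The cause of these moves was not tested.

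With the replicate block the counts were again 2 higher and 20 lower and the same 22 regions passed, with a median of -0.34, so pairing by batch changed no call. The difference in the share of counts, sgPrdm12 minus sgNTC, was 0.136 percentage points, 0.0381 with 250 bp, 0.439 with 1000 bp, 0.0681 to 0.204 with 1 library left out, and it reversed to -0.379 without the 10 most covered regions. The part of depth in the counts of calls was not tested.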
